A study of Mus musculus with 36 samples.

Results

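Messenger RNA bound to oligodendrocyte ribosomes was compared between awake and sleeping mice, with spontaneous waking and enforced wake pooled at equal weight. The comparison used the 18 bound arrays out of 36 in the series: 6 from waking, 6 from sleep-deprived and 6 from sleeping animals. All mice were C57BL/6 carrying Cnp – eGFP-L10a, a fluorescently tagged ribosomal protein driven by the promoter of Cnp, a gene of myelin-forming cells, and no group lacked the tag. Forebrain lysate of each mouse was split by immunoprecipitation of the tag into a bound fraction, from oligodendrocytes, and an unbound fraction, from the neurons and glia that remained. Waking mice had spent at least 70% of the preceding 6 to 7 h awake and were killed in the dark phase, between 3 and 5 am. Sleep-deprived mice had been awake for most of the dark phase and were then kept awake for 4 h of the light period by exposure to new objects. Sleeping mice had slept through at least 75% of a like 6 to 7 h window and were killed in the light phase, between 3 and 5 pm. The pool therefore includes wake in both light phases. The labels do not state the clock hour at which sleep-deprived mice were killed. Between the wake groups themselves, light phase, clock time and the keeping-awake procedure cannot be told apart. Between waking and sleeping mice, state cannot be told apart from light phase and clock time. Between sleep-deprived and sleeping mice, state cannot be told apart from the keeping-awake procedure, and whether their clock hours differed is not known. The pooled mean still contains both of these differences.

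Oligodendrocytes wrap axons in myelin, a lipid-rich membrane that speeds conduction, and they also feed lactate to the axons they enclose. Cells in the brain respond to wake with immediate-early genes, which are transcribed within minutes of a stimulus, with chaperones that refold proteins, and with targets of glucocorticoid hormones, whose level depends on both the clock and stress. Ribosome-bound RNA reports what a cell type is about to translate, so the arrays measure the sum of transcript supply and ribosome loading.

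Values are deposited log2 signals, 1 probe set per gene, and 13924 of 18193 genes were bright enough to test. A gene is said to have risen or fallen where limma's adjusted p (Benjamini-Hochberg over all tested genes) was below 0.05. Replicates were different animals, 6 per group, and this number limits the precision of each value. Mean signal per array was 5.925 to 5.942 log2 in waking, 5.906 to 5.921 in sleep-deprived and 5.909 to 5.923 in sleeping animals. Linear signals summed over a marker list are given in units of 1000. The 21 myelin genes summed to 141 to 152 in waking, 143 to 157 in sleep-deprived and 153 to 157 in sleeping animals in the bound arrays, against 29.2 to 39.6 in the unbound arrays, so the labelled cell type stood out by its markers. Neuronal RNA was not absent from the bound arrays, where 15 neuron markers summed to 40 to 47.2 in waking, 37 to 50.6 in sleep-deprived and 35.3 to 48.6 in sleeping animals, against 79.5 to 88.7 unbound. Some animals of the wake groups stood apart. Waking animals 3 and 5 and sleep-deprived animal 11 had Y-linked signals of 2.64 to 3.32 log2, against 7.47 to 8.34 log2 in the other bound arrays (means of Y-linked genes). Sleep-deprived animal 10 stood apart on later principal components of the bound arrays. Counts without the 3 animals of low Y-linked signal are given beside those they change by more than 1.5 times. In such tissue RNA, fewer cells of a type and less RNA per cell cannot be told apart.

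Between pooled wake and sleep 2000 genes differed in the bound arrays, 14.4% of those tested, with 1015 rises (7.29%) and 985 falls (7.07%). At least 2-fold changes numbered 90 rises and 104 falls, and the median change over all tested genes was −0.01 log2. At an unadjusted p below 0.05 the count was 3969. The wake and sleep arrays did not overlap at all for 179 rises and 122 falls, together 2.16% of tested genes. Without the 3 animals of low Y-linked signal 1668 genes were called, 1535 of them in common with the 2000. Genes enriched at least 2-fold in the bound over the unbound arrays were called in 25.8% of cases (321 of 1245, with 148 rises and 173 falls), against 10.9% of genes depleted to the same degree (410 of 3766). A gene could be bright enough to test through its unbound signal alone, so depleted genes could be dim in the bound arrays. Genes of at least 8 log2 were called in 16.3% of cases and dimmer ones in 12.5%. How much of the gap follows signal level was not tested. Where a called gene had a second probe set, 78.3% of 877 moved in the same direction.

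**Figure D1:**
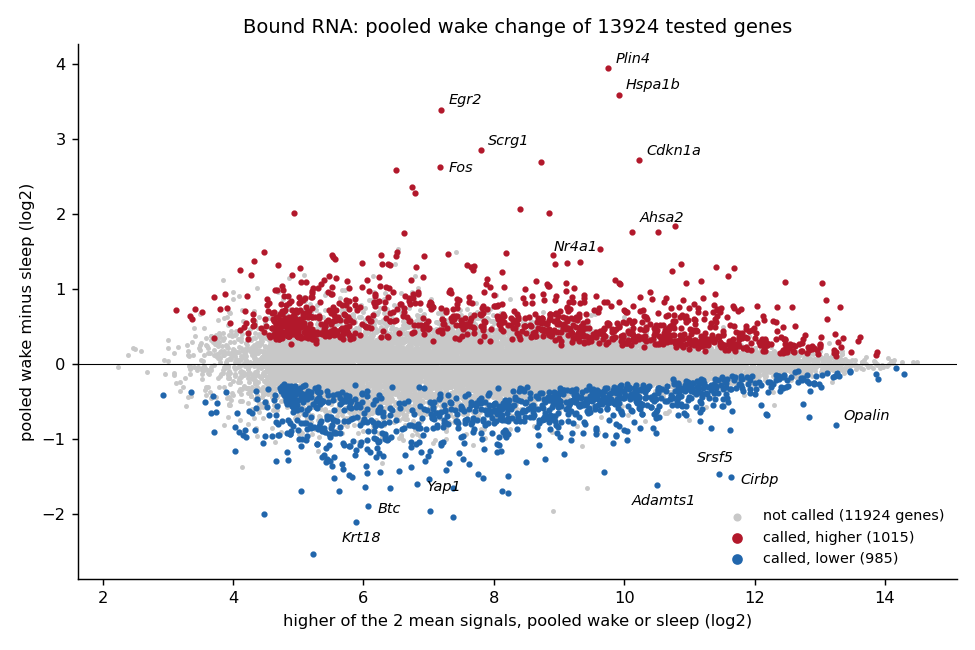
Pooled wake change (log2, vertical axis) of each tested gene against the higher of its 2 mean signals (log2, horizontal axis) in the bound arrays, with 1015 called rises in red, 985 called falls in blue and genes not called in grey. The largest rises, among them Plin4, Hspa1b and Egr2, exceed 3 log2, while the largest falls labelled, such as Krt18, stay near −2 log2.

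A mean over both wake groups can be carried by 1 of them, and the difference between sleep deprivation and waking, in which the sleeping animals have no part, was therefore tested for each gene. Over all tested genes this difference was called in 698 (5.01%), and in 234 without the 3 animals of low Y-linked signal. Of the 2000 pooled calls, 230 (11.5%) were also called in it, 141 rises and 89 falls, while without those 3 animals 79 of 1668 were. In 173 of the 230 the sleep-deprived animals lay further from sleep, and in 57 the waking animals did. In 958 of the 2000 (47.9%) the 95% interval of the difference lay within 0.5 log2 of 0, against 41.9% of all tested genes. A stricter call, which asks each wake group to differ from sleep in 1 direction, was met by 384 genes (2.76%), 222 higher and 162 lower. That count was 247 without sleeping animal 4, 253 without waking animal 3 and 177 without the 3 animals of low Y-linked signal. In 7 of the 2000 the changes of the wake groups had opposite signs.

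**Figure D2:**
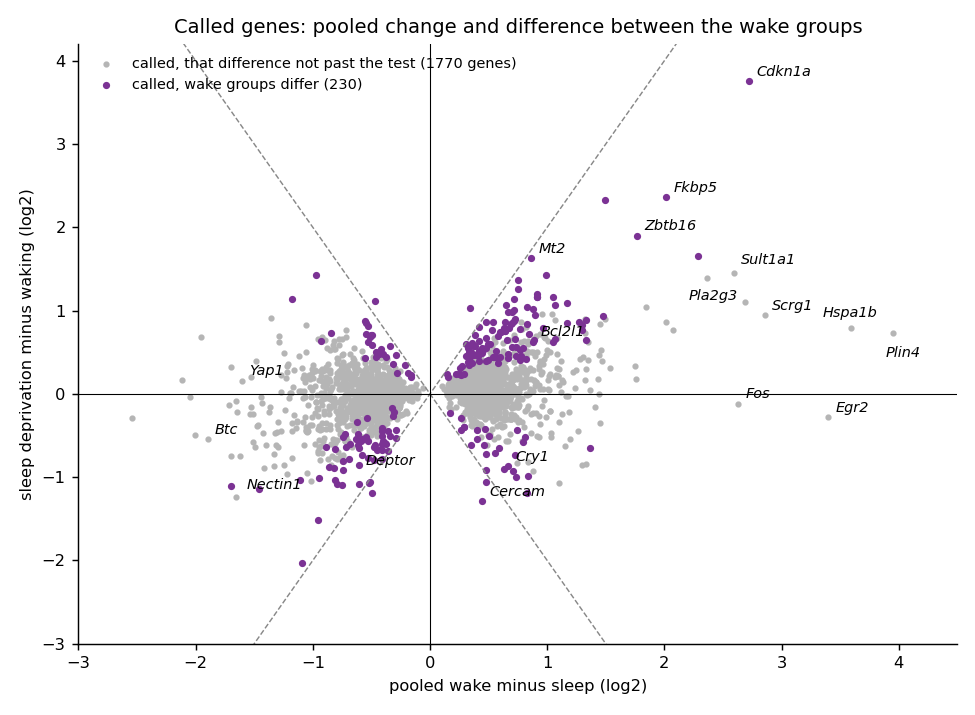
Pooled wake change (log2, horizontal axis) against sleep deprivation minus waking (log2, vertical axis) for the 2000 called genes, with the 230 whose wake groups also differ in purple. On the rising dashed line the change in waking is 0, and on the falling dashed line that in sleep deprivation is 0. Fos, Egr2 and Yap1 lie near the horizontal line, while Cdkn1a, Fkbp5, Zbtb16 and Mt2 lie toward the rising dashed line.

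Of 19 immediate-early transcription factors tested, 9 rose and 2 fell, and 8 met the stricter call, against 14.4% and 2.76% of all genes. The list's median change was 0.45 log2, with 0.38 in waking and 0.52 in sleep deprivation. Egr2, a zinc-finger factor of the early growth response family, had a signal of 6.98 to 7.81 log2 (median 7.29) in waking animals, 5.63 to 7.83 (7.21) in sleep-deprived animals and 3.04 to 4.47 (3.85) in sleeping animals. No wake array reached down to the sleep arrays, and the pooled change was 3.40 ± 0.26 log2 (SE, adjusted p = 1.7e-07). A dimmer probe set of Egr2 gave 2.71 log2. Fos, a partner in the AP-1 dimer, spanned 6.69 to 8.02 log2 (median 7.00) in waking, 6.24 to 7.64 (7.21) in sleep-deprived and 4.02 to 5.05 (4.51) in sleeping animals. It rose by 2.63 ± 0.23 log2 (adjusted p = 1.0e-06), and sleep deprivation minus waking was −0.12 log2 with a 95% interval of −0.68 to 0.44. The nuclear receptor gene Nr4a1 was brighter, at 9.31 to 9.66 log2 (median 9.43) in waking, 9.58 to 10.12 (9.76) in sleep-deprived and 7.63 to 8.47 (8.18) in sleeping animals. Its change of 1.54 ± 0.12 log2 (adjusted p = 1.7e-07) again left a gap between wake and sleep. Egr1 rose by 1.24 ± 0.12 log2 (adjusted p = 2.5e-06), and sleep deprivation minus waking was 0.07 log2. Fosl2 (1.30), Fosb (1.45), Egr3 (1.05), Npas4 (0.90) and Ier5 (0.58 log2) rose as well, with Fosl2 and Egr3 higher in sleep deprivation than in waking (adjusted p of that difference 0.0074 and 0.038). Klf4, a Krüppel-like factor, went the other way by −0.78 log2 in the bound arrays, while its unbound signal was 1.14 log2 higher in wake. Jund, which codes for an AP-1 subunit, fell slightly (−0.16 log2). None of the 19 genes was enriched 2-fold in the bound fraction. The bound signal of Egr2, Fos and Egr1 was lower than the unbound one by 2.16, 2.38 and 2.00 log2, and the unbound arrays showed rises of 3.10, 2.63 and 0.86 log2 in the same genes. How much of the bound signal came from RNA of other cells was not tested.

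Effectors induced by activity gave 4 rises and no fall among 13 (limma, with 8 rises and 0 falls at an unadjusted p below 0.05, median 0.42 log2). Without sleep-deprived animal 10 the rises numbered 6. Counts of this paragraph stand against rises in 7.29% and falls in 7.07% of all genes. Trib1, a pseudokinase, rose by 1.13 ± 0.16 log2 (adjusted p = 0.00013), and its wake arrays did not overlap with sleep. Homer1, a scaffold of the postsynaptic density, rose by 0.70 log2, more in sleep deprivation (0.98) than in waking (0.42 log2, adjusted p of the difference 0.049). Further probe sets of Homer1 were unequal, with pooled changes of 1.47, 1.29, 0.40, 0.18 and 0.18 log2. Among feedback inhibitors of MAP kinase signalling, 7 of 16 rose and 1 fell. The phosphatase genes Dusp4 (1.33), Dusp6 (0.81), Dusp5 (0.80) and Dusp1 (0.48 log2) and the inhibitors Spry4 (0.91), Spred3 (0.90) and Spry2 (0.28 log2) made up the rises. Dusp16, which codes for a phosphatase of the JNK branch, fell by 0.55 log2 from a bound signal 2.37 log2 above the unbound one, though the mean over its probe sets did not pass the test (−0.17 log2, adjusted p = 0.11). Dusp1 and Spry2 were higher in sleep deprivation than in waking (adjusted p = 0.03 and 0.049). Without the 3 animals of low Y-linked signal, 5 of these 16 genes rose.

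Among chaperones and regulators of the heat shock response, cytosolic or nuclear except the mitochondrial Hspe1 and Hspd1, 17 of 21 tested members rose, none fell (0 also at an unadjusted p below 0.05), and all 21 changes were above 0. The median was 0.48 log2 (0.43 in waking and 0.54 in sleep deprivation), 11 members met the stricter call, and in 0 of 21 did the wake groups differ. Without the 3 animals of low Y-linked signal the count of rises was 19. Of all tested genes 7.29% rose and 2.76% met the stricter call. Chordc1, a cochaperone of Hsp90, had a signal of 10.62 to 11.06 log2 (median 10.82) in waking, 10.69 to 11.47 (11.06) in sleep-deprived and 9.78 to 9.95 (9.88) in sleeping animals. The sleeping animals lay close together and below each wake array, and the change was 1.07 ± 0.10 log2 (adjusted p = 2.5e-06). Hsph1, an Hsp110 nucleotide exchange factor, ranged over 12.94 to 13.21 log2 (median 13.07) in waking, 12.87 to 13.39 (13.14) in sleep-deprived and 11.81 to 12.55 (12.30) in sleeping animals, a change of 0.86 ± 0.09 log2 (adjusted p = 8.4e-06). Dnajb1, the J-domain partner of Hsp70, rose by 0.76 ± 0.08 log2 (adjusted p = 5.2e-06), and Hsp90aa1, the inducible Hsp90, by 0.36 ± 0.05 log2 (adjusted p = 0.00019).

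The inducible Hsp70 genes had the largest changes and the widest spread. Hspa1b read 9.19 to 9.97 log2 (median 9.53) in waking, 6.32 to 11.92 (11.36) in sleep-deprived and 5.09 to 8.19 (5.99) in sleeping animals. The lowest wake value was that of sleep-deprived animal 11, which lay inside the sleep range, while the other sleep-deprived animals and all waking animals stood above that range. The pooled change was 3.59 ± 0.65 log2 (adjusted p = 0.0012), and 2 further probe sets gave 3.15 and 3.49 log2. Hspa1a, whose sequence is nearly identical so that the arrays may not separate the pair, rose by 2.69 ± 0.59 log2 (adjusted p = 0.0049). Ahsa2, a homologue of the Hsp90 ATPase activator Ahsa1, had 10.22 to 10.59 log2 (median 10.44) in waking, 9.69 to 11.42 (10.63) in sleep-deprived and 8.10 to 9.23 (8.86) in sleeping animals. Wake and sleep did not overlap, and the change was 1.75 ± 0.22 log2 (adjusted p = 3.8e-05). Stip1, which bridges Hsp70 and Hsp90 (0.79 log2), Hspa4l (0.69), Fkbp4 (0.58), Ahsa1 (0.48), Dnaja1 (0.40), and the mitochondrial chaperonin pair Hspe1 (0.51) and Hspd1 (0.33 log2) rose with smaller changes. The ring-shaped cytosolic chaperonin TRiC, which folds actin and tubulin, had 4 of 8 subunits risen and none fallen. Their changes were 0.16 to 0.35 log2 (Cct7, Cct6a, Cct5 and Cct4), and of all genes 7.29% rose. Cct7 was no longer called in 2 and Cct5 in 3 of 18 fits that left out 1 animal (adjusted p up to 0.0755, without sleeping animal 1, and 0.0629, without sleeping animal 4).

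Because these genes moved together, their promoters were searched on both strands for the heat shock element, the binding motif of heat shock factors, built from alternating GAA and TTC units. Promoter sequences run from 250 bases before to 50 after the start of a gene and come from RefSeq, build GRCm38.p6, whose table matched 18 of the 21 chaperones by symbol. The 2-unit form GAANNTTC occurred in 11 of 18 (61.1%), against 6.97% of 11187 tested genes. The 3-unit forms GAANNTTCNNGAA and TTCNNGAANNTTC, which contain the shorter form, occurred in 4 of 18 (22.2%), namely Chordc1, Hsph1, Hspe1 and Hspd1, against 0.536% of tested genes. Among all genes that rose or fell, the 2-unit form was found in 8.25% and 8.24%. The 3-unit form was found in 9 of 812 that rose (1.11%), the 4 chaperones included, and in 1 of 765 that fell (0.131%). The 61.1% and 22.2% thus describe a list chosen for its heat shock genes, whichever of its members rose. Promoters of Chordc1 (chr9:18292017-18292316, plus strand), Hsph1 (chr5:149636287-149636586, minus strand) and Hspe1 (chr1:55087898-55088197, plus strand) are shown because they carry the 3-unit form, with the matched bases in capitals. Overlapping matches are counted separately, and a match describes letters, not a bound site.
Chordc1: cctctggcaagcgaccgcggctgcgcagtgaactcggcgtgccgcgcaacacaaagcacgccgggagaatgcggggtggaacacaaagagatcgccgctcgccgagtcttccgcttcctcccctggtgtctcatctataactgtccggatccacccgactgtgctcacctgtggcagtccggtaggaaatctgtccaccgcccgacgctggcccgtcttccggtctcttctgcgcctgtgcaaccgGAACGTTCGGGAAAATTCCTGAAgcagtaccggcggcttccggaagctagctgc
Hsph1: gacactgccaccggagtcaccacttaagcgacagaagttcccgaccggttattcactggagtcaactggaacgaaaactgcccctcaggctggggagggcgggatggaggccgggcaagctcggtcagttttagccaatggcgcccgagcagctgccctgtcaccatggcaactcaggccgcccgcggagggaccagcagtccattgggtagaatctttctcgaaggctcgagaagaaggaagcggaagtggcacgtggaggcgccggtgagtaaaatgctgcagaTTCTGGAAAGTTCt
Hspe1: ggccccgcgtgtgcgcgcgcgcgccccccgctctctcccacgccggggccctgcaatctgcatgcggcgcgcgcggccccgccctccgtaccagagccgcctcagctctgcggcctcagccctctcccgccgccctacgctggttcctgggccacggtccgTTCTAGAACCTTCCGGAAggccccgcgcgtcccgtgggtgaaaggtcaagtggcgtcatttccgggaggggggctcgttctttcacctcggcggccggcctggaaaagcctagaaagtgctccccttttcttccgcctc

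Genes of endoplasmic reticulum folding and of the unfolded protein response rose in 6 of 23 cases and fell in none (limma, with 10 rises and 0 falls at an unadjusted p below 0.05), with a median of 0.24 log2, 0.09 in waking and 0.36 in sleep deprivation. None met the stricter call. Of all tested genes 7.29% rose and 2.76% met that call. Herpud1, which helps to clear misfolded proteins from the reticulum, had 7.77 to 8.59 log2 (median 8.18) in waking, 8.15 to 9.33 (8.70) in sleep-deprived and 7.37 to 7.78 (7.58) in sleeping animals. It rose by 0.88 ± 0.17 log2 (adjusted p = 0.0017), and its lowest waking array lay just under its highest sleep array. Xbp1, a transcription factor of the response, rose by 0.66 ± 0.17 log2 (adjusted p = 0.012). Hspa5, the main Hsp70 of the reticulum, rose by 0.62 ± 0.17 log2 (adjusted p = 0.018), a call that was lost without sleeping animal 4 (adjusted p = 0.0528). Pdia6 and Pdia3, disulfide isomerases (0.52 and 0.28 log2), and Hsp90b1, the Hsp90 of the reticulum (0.32 log2), completed the rises. In the unbound arrays 4 of the 23 rose, and no member's change differed between the fractions past the test.

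A promoter motif of this response, the endoplasmic reticulum stress element, consists of a CCAAT box and a CCACG box set apart by 9 bases. It was found on either strand in 8 of the 20 genes of the list with a promoter (40%), against 0.161% of tested genes. Among all changed genes it was found in 7 of 812 that rose (0.862%) and 0 of 765 that fell. Of the 8, Hspa5, Hsp90b1 and Pdia6 rose, while Calr, Canx, Dnajc3, Creld2 and Syvn1 were not called. The 40% thus describes the list, whichever of its members rose. Herpud1 and Xbp1 were not among the 8, which says only that these letters are not in the window. The promoters of Hsp90b1 (chr10:86705395-86705694, minus strand) with 2 matches and Hspa5 (chr2:34771840-34772139, plus strand) with 1 are printed with the element in capitals. Of the 19 immediate-early genes tested, 14 had a promoter sequence, and a gene counted where any of its promoters matched. The serum response element (a CC pair, 6 bases of A or T, and a GG pair) was found in 1 of these 14 genes, against 1.64% of tested genes. That gene was Egr2, with 5 promoters and 4 matches over them, and 1 promoter (chr10:67537316-67537615, plus strand) is shown for comparison. The cAMP response element TGACGTCA was found in 0 of these 14 genes and in 3.38% of tested genes.
Hsp90b1: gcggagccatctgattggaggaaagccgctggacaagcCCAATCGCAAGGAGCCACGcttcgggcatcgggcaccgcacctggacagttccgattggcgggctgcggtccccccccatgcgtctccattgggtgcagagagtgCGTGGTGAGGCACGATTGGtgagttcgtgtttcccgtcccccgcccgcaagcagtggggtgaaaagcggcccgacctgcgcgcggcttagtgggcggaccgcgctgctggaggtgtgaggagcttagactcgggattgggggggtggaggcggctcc
Hspa5: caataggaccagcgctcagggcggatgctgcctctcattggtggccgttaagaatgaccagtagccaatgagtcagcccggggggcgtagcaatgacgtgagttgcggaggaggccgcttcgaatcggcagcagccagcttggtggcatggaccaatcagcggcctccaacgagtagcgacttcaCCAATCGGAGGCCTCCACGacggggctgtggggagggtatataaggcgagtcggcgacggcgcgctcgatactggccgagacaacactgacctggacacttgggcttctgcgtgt
Egr2: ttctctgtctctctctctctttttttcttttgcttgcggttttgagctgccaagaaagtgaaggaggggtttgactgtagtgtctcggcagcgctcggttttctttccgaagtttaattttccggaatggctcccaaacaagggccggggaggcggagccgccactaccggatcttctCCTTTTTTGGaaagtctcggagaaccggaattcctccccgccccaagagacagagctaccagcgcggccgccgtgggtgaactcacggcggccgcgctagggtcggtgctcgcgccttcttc

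Targets of the glucocorticoid receptor had the highest median of the large lists, 0.83 log2. Of the 20 tested, 14 rose and none fell, against 7.29% and 7.07% of all genes. Here the wake groups parted: the median was 0.38 log2 in waking and 1.18 in sleep deprivation, 11 of 20 members differed between the wake groups, against 5.01% of all genes, and 1 met the stricter call. That one was Plin4, a perilipin that coats lipid droplets, which also led all genes when ranked by the smaller of their changes in the wake groups. It had 8.51 to 10.19 log2 (median 9.50) in waking, 8.86 to 10.85 (10.18) in sleep-deprived and 5.21 to 6.30 (5.91) in sleeping animals. More than 2 log2 separated the lowest wake array from the highest sleep array, and the change was 3.95 ± 0.29 log2 (adjusted p = 1.5e-07).

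Cdkn1a, which encodes the cell cycle inhibitor p21, showed the opposite distribution. Its signal was 7.76 to 9.43 log2 (median 8.22) in waking, 9.56 to 13.52 (12.52) in sleep-deprived and 7.18 to 7.82 (7.53) in sleeping animals. Waking overlapped with sleep and sleep deprivation did not, and sleep deprivation exceeded waking by 3.75 ± 0.49 log2 (adjusted p = 0.00041), so that the pooled 2.72 ± 0.43 log2 (adjusted p = 0.00034) describes neither wake group. Fkbp5, a cochaperone that restrains the receptor, read 7.13 to 8.74 log2 (median 7.43) in waking, 8.91 to 10.55 (10.29) in sleep-deprived and 6.09 to 7.26 (6.95) in sleeping animals. It was 2.36 ± 0.30 log2 higher in sleep deprivation than in waking (adjusted p = 0.00032). Zbtb16, a zinc-finger repressor, differed by 1.90 ± 0.33 log2 in the same direction (adjusted p = 0.0027). The metallothionein genes Mt1 and Mt2 differed likewise (adjusted p = 0.0084 and 0.0078), but the pooled call of Mt2 sat at the threshold (adjusted p = 0.0499) and was lost in 14 of 18 omissions of a single animal (adjusted p up to 0.0951, without sleeping animal 2). Errfi1, an inhibitor of epidermal growth factor receptors, rose by 0.45 log2 in waking and 1.01 in sleep deprivation. Sult1a1, a phenol sulfotransferase, rose by 2.59 ± 0.47 log2 (adjusted p = 0.0012) with 1.87 log2 in waking and 3.32 in sleep deprivation, a difference that did not pass the test (adjusted p = 0.14). Sgk1, a kinase induced by corticoids (1.08), Pdk4, which holds back pyruvate oxidation (1.07), Nfkbia, an inhibitor of NF-κB (0.94) and Arrdc2, an arrestin-domain gene (0.91 log2), rose also.

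**Figure D3:**
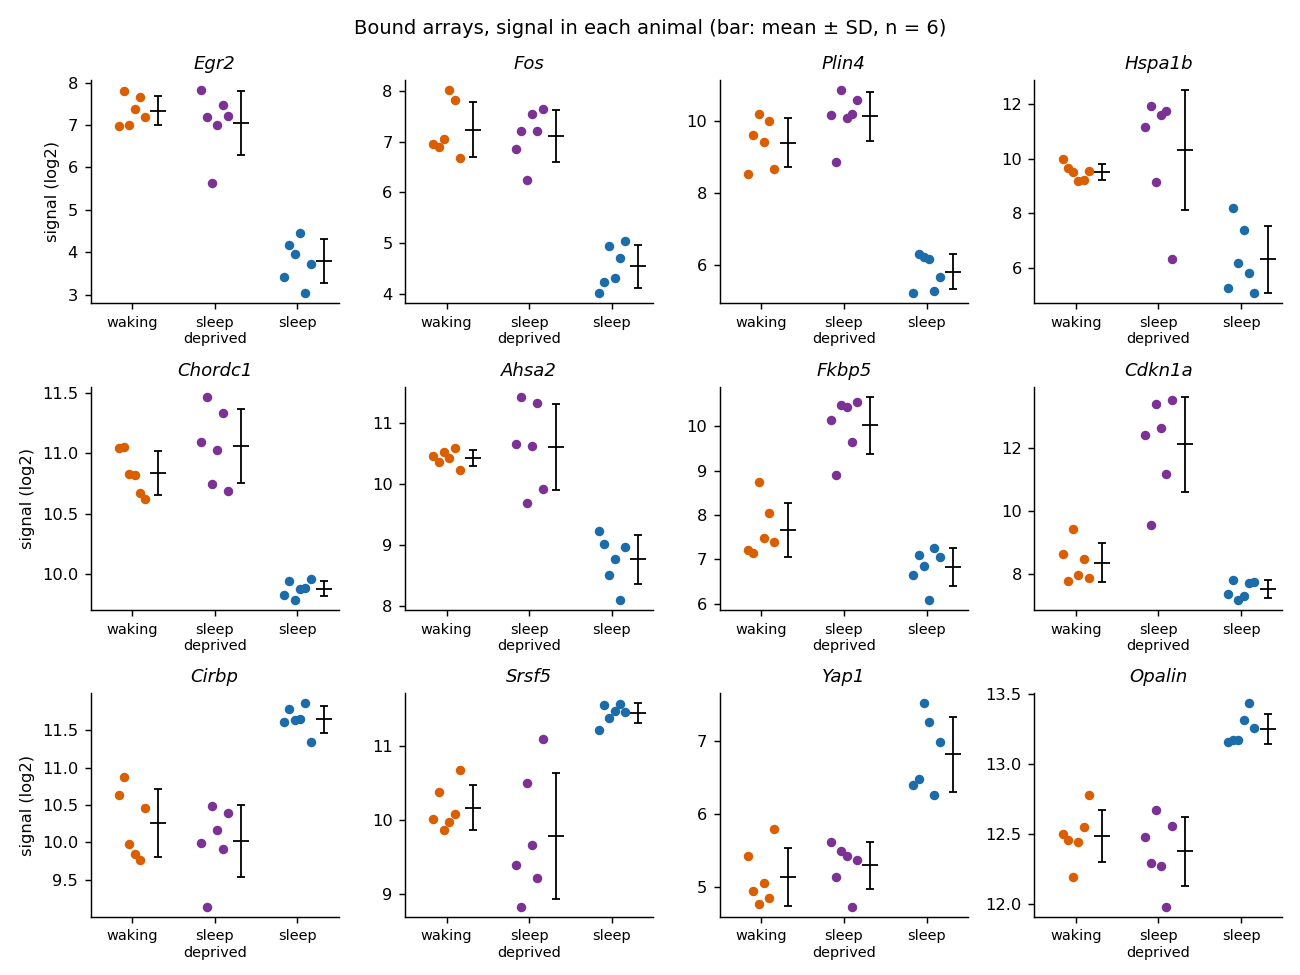
Signal (log2, vertical axes of differing range) of 12 genes in each bound array, with waking, sleep-deprived and sleeping animals from left to right and bars for mean ± SD (n = 6). Egr2, Fos, Plin4, Chordc1 and Ahsa2 are higher in both wake groups and Cirbp, Srsf5, Yap1 and Opalin lower, each without overlap, whereas Fkbp5 and Cdkn1a are highest in sleep deprivation and Hspa1b has 1 sleep-deprived animal within the sleep range.

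Cell cycle inhibitors and p53 targets rose in 5 of 16 cases, and none fell, against rises in 7.29% and falls in 7.07% of all genes. Besides Cdkn1a these were Phlda3, an inhibitor of Akt (0.35 ± 0.05 log2, adjusted p = 0.00028), Trp53inp1 (0.48 log2), Cdkn1b, the p27 gene (0.30 log2) and Ccng1 (0.27 log2). Phlda3 ran from 11.38 to 11.60 log2 in waking and 11.34 to 11.58 in sleep-deprived animals, against 11.01 to 11.25 in sleeping animals, and its unbound signal fell by 0.55 log2. Of 14 apoptosis genes 2 rose, and these counts and those of the cell cycle list below stand against the same shares. Bcl2l1, which codes for the survival factor Bcl-xL, had 10.78 to 11.18 log2 (median 10.85) in waking, 11.09 to 11.78 (11.55) in sleep-deprived and 10.12 to 10.55 (10.28) in sleeping animals. The sleep arrays lay below both wake groups, the change was 0.88 ± 0.09 log2 (adjusted p = 5.7e-06), and sleep deprivation exceeded waking (adjusted p = 0.0025). Its further probe sets were unequal, with pooled changes of 0.88, 0.22 and, in a dim one, −0.06 log2. Pmaip1, the gene of the proapoptotic Noxa, rose by 0.71 log2 at a signal below 3.6 log2, where probe sets are dim. Among 16 genes of cell cycle and replication, Ccnd2 and Mcm4 rose (0.40 and 0.43 log2), calls that were lost in 2 and 13 of 18 omissions of a single animal (adjusted p up to 0.0666 and 0.116, both without sleeping animal 5). Only 1 of the 16 rose without the 3 animals of low Y-linked signal.

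Cirbp and the splicing genes Srsf5 and Rbmx were the 3 tested members of a list of 4 cold-inducible RNA-binding protein genes. All 3 fell and met the stricter call, against 7.07% and 2.76% of all genes. Their median of −1.47 log2 was the change of Srsf5. Cirbp, the cold-inducible RNA-binding protein, had 9.76 to 10.87 log2 (median 10.22) in waking, 9.14 to 10.49 (10.08) in sleep-deprived and 11.34 to 11.86 (11.64) in sleeping animals, with no overlap. Its change was −1.51 ± 0.18 log2 (adjusted p = 2.7e-05), and sleep deprivation minus waking had an interval of −0.68 to 0.20 log2. Srsf5, a splicing factor, read 9.87 to 10.68 log2 (median 10.05) in waking, 8.83 to 11.10 (9.53) in sleep-deprived and 11.22 to 11.58 (11.47) in sleeping animals, a change of −1.47 ± 0.24 log2 (adjusted p = 0.00042). Rbmx, a further splicing regulator, fell by 0.69 log2 (adjusted p = 0.00079), although the mean over its probe sets was not called (−0.05 log2, adjusted p = 0.87).

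Of 19 clock genes tested, 1 rose and 3 fell, against rises in 7.29% and falls in 7.07% of all genes, and the median was 0.00 log2. Dbp, a clock output factor, had 9.32 to 9.82 log2 (median 9.57) in waking, 9.30 to 9.83 (9.64) in sleep-deprived and 9.89 to 11.34 (10.40) in sleeping animals. It fell by 0.85 ± 0.16 log2 (adjusted p = 0.0017) by nearly equal amounts in waking (−0.87) and sleep deprivation (−0.84 log2). Cry1, a repressor of the clock, rose by 1.10 log2 in waking and 0.23 in sleep deprivation, and sleep deprivation minus waking was −0.87 ± 0.15 log2 (adjusted p = 0.0026). Nr1d1, the gene of the nuclear repressor Rev-erbα, fell by 0.71 log2 in waking and 0.21 in sleep deprivation (adjusted p of the difference 0.012). Ciart, a further repressor, fell by 0.58 log2, a call lost in 4 of 18 omissions of a single animal (adjusted p up to 0.0991, without sleeping animal 5). The E-box CACGTG, the motif bound by CLOCK and BMAL1, was present in 5 of the 17 genes of the list with a promoter (29.4%) and in 11.3% of tested genes.

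Several of the largest shared rises fell in no list. Scrg1, a small secreted protein gene first found in scrapie, had 6.78 to 8.03 log2 (median 7.24) in waking, 7.42 to 9.34 (8.14) in sleep-deprived and 4.58 to 5.61 (4.85) in sleeping animals, a change of 2.86 ± 0.25 log2 (adjusted p = 1.0e-06). Fam83d, a spindle-associated protein gene, ran from 7.29 to 9.16 log2 (median 7.53) in waking, 8.35 to 9.23 (8.89) in sleep-deprived and 5.83 to 7.24 (6.22) in sleeping animals, a change of 2.07 ± 0.29 log2 (adjusted p = 1.0e-04). Both stood above sleep in 12 of 12 wake arrays. Pla2g3, a secreted phospholipase, rose by 2.36 ± 0.35 log2 (adjusted p = 0.00019). Fam107a, a stress-induced actin regulator, rose by 1.84 ± 0.32 log2 with 2 further probe sets at 1.86 and 1.93 log2. Luc7l, a splicing factor, rose by 1.46 log2 in the probe set kept, and its other 5 probe sets gave 0.40 to 0.82 log2. The probe set annotated to the small nucleolar RNA Snord104 rose by 1.37 ± 0.23 log2 (adjusted p = 0.00051).

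Several of the largest shared falls were dim, or were large in 1 probe set of the gene. Krt18, an epithelial keratin, had 3.19 to 4.72 log2 (median 3.46) in waking, 3.66 to 4.30 (3.83) in sleep-deprived and 5.04 to 6.58 (6.03) in sleeping animals, a change of −2.11 ± 0.23 log2 (adjusted p = 6.9e-06). Yap1, the effector of Hippo signalling, had 4.76 to 5.79 log2 (median 4.99) in waking, 4.72 to 5.61 (5.39) in sleep-deprived and 6.26 to 7.52 (6.73) in sleeping animals. It fell by 1.61 ± 0.20 log2 (adjusted p = 4.1e-05) in the probe set kept, and by 0.24 log2 in the other. Btc, the growth factor betacellulin, fell by 1.90 ± 0.22 log2 (adjusted p = 2.1e-05) while its dim second probe set changed by −0.06 log2. Unequal probe sets were also found for Slc13a5, a citrate transporter (−1.66, other probe set −0.31 log2), Ngfr, the p75 neurotrophin receptor (−1.52, others −0.08 and −0.36), and Rfc3, a replication clamp loader subunit (−1.72, other −0.07). Tfpi, the gene of the tissue factor inhibitor, fell by 2.00 log2 but was dim, at 4.70 log2 or less in all wake arrays, and its further probe sets gave −0.13 to −0.52 log2. Popdc3 (−1.70) and Zfp28 (−2.04 log2, further probe sets −1.08 to 0.26) fell with overlapping arrays. Herc6 (−1.65 log2) was no longer called after 3 of 18 omissions of a single animal (adjusted p up to 0.0966, without sleeping animal 3).

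Among bright genes, Vcl, the gene of the adhesion protein vinculin, had 7.81 to 9.03 log2 (median 8.12) in waking, 7.58 to 8.90 (8.17) in sleep-deprived and 9.21 to 10.06 (9.84) in sleeping animals. Both its probe sets fell, by 1.44 ± 0.22 log2 (adjusted p = 0.00028) and 1.56 log2. Adamts1, a secreted metalloprotease, had 8.60 to 9.51 log2 (median 9.35) in waking, 7.76 to 9.60 (8.60) in sleep-deprived and 10.12 to 10.83 (10.53) in sleeping animals and fell by 1.62 ± 0.21 log2 (adjusted p = 5.1e-05). In both genes all 12 wake arrays lay below the sleep arrays. Fzd5, a Wnt receptor, fell by 1.27 log2 and its dim second probe set by 1.59 log2. Slc9a9, an endosomal proton exchanger, fell by 1.20 ± 0.14 log2 (adjusted p = 1.6e-05), with −0.01 to −0.32 log2 in 3 further probe sets. Saxo2 (−1.70, further probe sets −0.42, −0.33 and 0.26), Tmem81 (−1.49) and Tmem108 (−1.17 log2, further −0.58 and −0.20) also fell.

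Myelin genes changed in both directions by small amounts. Of 21 tested, 7 fell and 1 rose, against 7.07% and 7.29% of all genes, while the median was −0.01 log2, at the level of all genes. Opalin, a membrane protein of central myelin, had 12.19 to 12.78 log2 (median 12.47) in waking, 11.98 to 12.67 (12.38) in sleep-deprived and 13.15 to 13.43 (13.21) in sleeping animals. Its change of −0.82 ± 0.09 log2 (adjusted p = 6.4e-06) left no overlap, and its wake groups differed by −0.32 to 0.10 log2 (95% interval). Pllp, the gene of plasmolipin, spanned 11.82 to 12.31 log2 (median 12.11) in waking, 11.89 to 12.34 (12.19) in sleep-deprived and 12.62 to 12.95 (12.86) in sleeping animals and fell by 0.71 ± 0.07 log2 (adjusted p = 5.2e-06). Aspa, which hydrolyses N-acetylaspartate, fell by 0.32 ± 0.04 log2, Ninj2 by 0.80 and Gjb1, a gap junction connexin gene, by 0.42 log2. Mag, which holds myelin to the axon, fell by 0.16 log2, mostly in waking (−0.27, sleep deprivation −0.05, adjusted p of the difference 0.02), and was not called in 3 of 18 omissions of a single animal (adjusted p up to 0.0737, without sleeping animal 5). Mobp, a basic protein of compact myelin, rose by 0.30 ± 0.06 log2 (adjusted p = 0.0014). Cnp, whose promoter drives the tag, had 14.04 to 14.10 log2 (median 14.07) in waking, 14.06 to 14.19 (14.15) in sleep-deprived and 14.13 to 14.20 (14.16) in sleeping animals. That change of −0.06 log2 (adjusted p = 0.045) was lost in 13 of 18 omissions of a single animal (adjusted p up to 0.111, without sleeping animal 6). Rpl10a, the gene of the tagged protein, did not pass the test (−0.18 ± 0.09 log2, adjusted p = 0.17). Without the 3 animals of low Y-linked signal 5 of the 21 myelin genes fell and 1 rose.

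Genes of axon-glia contact fell in 5 of 17 cases and rose in none, with 3 of 17 changes above 0 and a median of −0.10 log2. Counts of this paragraph stand against falls in 7.07% and rises in 7.29% of all genes. Sema6a, a semaphorin (−0.50), Cadm4, an adhesion molecule that binds axons (−0.33), Nfasc, the neurofascin gene (−0.23) and Epb41l3, a paranodal scaffold (−0.10 log2), fell besides Mag. Without the 3 animals of low Y-linked signal 3 of the 17 fell, as without sleep-deprived animal 10, and Nfasc was lost in 14 of 18 omissions (adjusted p up to 0.101, without sleeping animal 2). Precursor and premyelinating genes gave 2 rises and 1 fall among 17, with 6 of the 17 changes above 0 and a median of −0.10 log2, and 1 rise and 1 fall without the 3 animals of low Y-linked signal. Bcas1, a marker of early myelinating cells and the brightest member of the list, had 12.93 to 13.08 log2 in waking and 12.93 to 13.11 in sleep-deprived animals, against 12.68 to 12.82 in sleeping animals. It rose by 0.26 ± 0.04 log2 (adjusted p = 0.00014) with no overlap. Pdgfra, the receptor that defines precursors, did not pass the test (0.51 ± 0.21 log2, adjusted p = 0.10). Lhfpl3 fell in sleep deprivation (−1.33) more than in waking (−0.25 log2, adjusted p of the difference 0.015). Of 18 lineage regulators 1, Sox6, fell (−1.02 log2), and that call was lost in 3 of 18 omissions (adjusted p up to 0.0668, without sleeping animal 1) and without the 3 animals of low Y-linked signal, where 0 of the 18 were called. Its change was −0.60 log2 without sleeping animal 4. Myrf, the master regulator of myelination, did not pass the test (0.26 ± 0.11 log2, adjusted p = 0.13).

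Of 11 ErbB receptors, ligands and regulators 1 rose (Errfi1) and 1 fell (Btc), against rises in 7.29% and falls in 7.07% of all genes, while Erbb2 (0.15 ± 0.09 log2, adjusted p = 0.30) and Nrg2 (0.34 ± 0.12 log2, adjusted p = 0.066) did not pass the test. In the Hippo pathway, which holds back YAP, 3 of 10 genes rose and 1 fell. Besides the fall of Yap1, the kinase gene Lats2 rose by 0.55 log2 (adjusted p = 0.0093) and the YAP-binding Amotl2 by 0.41 log2 (adjusted p = 0.0094). Ccn2, a YAP target in other tissues, rose by 0.65 log2, a call lost in 2 of 18 omissions of a single animal (adjusted p up to 0.0573, without sleeping animal 1).

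Lipid genes supply myelin membrane, and their counts stand against rises in 7.29% and falls in 7.07% of all genes. Cholesterol synthesis gave 4 falls and no rise among 21 genes, with a median of −0.08 log2, 0.01 in waking and −0.20 in sleep deprivation. Dhcr7, which catalyses the last step to cholesterol, had 10.16 to 10.89 log2 (median 10.34) in waking, 10.14 to 10.55 (10.23) in sleep-deprived and 10.73 to 11.17 (10.81) in sleeping animals and fell by 0.56 ± 0.10 log2 (adjusted p = 0.0012). The falls of Mvk, Cyp51 and Sc5d (−0.32, −0.33 and −0.34 log2) were lost in 4, 4 and 6 of 18 omissions (adjusted p up to 0.0675, without sleeping animal 2, 0.0692, without sleeping animal 3, and 0.0858, without sleeping animal 1). The other probe sets of Sc5d gave 0.54 and 0.21 log2, and the mean over its probe sets was 0.13 log2, opposite to the fall. Without the 3 animals of low Y-linked signal 2 of the 21 fell. Glycerophospholipid synthesis gave 1 rise and 2 falls among 25 genes. Pcyt2, of the phosphatidylethanolamine branch, fell by 0.49 log2 and Lpcat2, which remodels phosphatidylcholine, by 0.64 log2. Pcyt1a, of the phosphatidylcholine branch, rose by 0.53 log2 in the probe set kept. Its further probe sets gave 0.00095, −0.06 and 0.34 log2. Of 23 genes of fatty acid and sphingolipid synthesis 1 rose and 3 fell. Elovl7, a fatty acid elongase 2.60 log2 brighter in the bound fraction, fell by 0.55 ± 0.09 log2 (adjusted p = 0.00074), and its further 5 probe sets changed by −0.30 to −1.04 log2. Degs2, which makes hydroxylated ceramide, rose by 0.49 log2. The falls of Sptlc1 and Degs1, both of ceramide synthesis (−0.43 and −0.15 log2), were lost in 2 and 11 of 18 omissions (adjusted p up to 0.069, without sleeping animal 5, and 0.0773, without sleeping animal 1). Other probe sets of Sptlc1 gave 1.51, 0.19 and −0.31 log2, and their mean with the one kept was 0.24 log2, opposite to the fall. Leaving out the 3 animals of low Y-linked signal gave 1 rise and 1 fall among the 23.

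Lipid droplet genes split. Of 16, 3 rose and 2 fell, against 7.29% and 7.07% of all genes, with a median of 0.00 log2. Dgat2, which makes triglyceride, had 7.76 to 8.24 log2 (median 8.02) in waking, 7.74 to 8.20 (7.97) in sleep-deprived and 8.40 to 9.29 (8.91) in sleeping animals. It fell by 0.87 ± 0.13 log2 (adjusted p = 2.0e-04) without overlap, and its second probe set by 0.73 log2. Cidec, which fuses droplets, fell by 0.57 log2 (adjusted p = 0.0016). Pnpla2, the lipase that opens triglyceride breakdown, rose by 0.28 log2 in waking and 1.16 in sleep deprivation, and the wake groups differed (adjusted p = 0.0043). Plin3 rose by 0.44 log2 (adjusted p = 0.025).

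Energy genes were mostly not called, and the counts below stand against rises in 7.29% and falls in 7.07% of all genes. Slc16a1, which encodes the lactate transporter MCT1, had 9.99 to 10.55 log2 (median 10.22) in waking, 9.98 to 10.56 (10.32) in sleep-deprived and 10.76 to 11.07 (10.93) in sleeping animals. Wake and sleep did not overlap, and it fell by 0.66 ± 0.10 log2 (adjusted p = 0.00022), by −0.67 log2 in waking and −0.64 in sleep deprivation. In the rest of the glycolysis and lactate list of 21 genes, Pgam1 rose by 0.23 log2. Of 28 oxidative phosphorylation subunits Cox4i1 and Ndufs3 fell (−0.21 and −0.25 log2), and the call of Ndufs3 was lost without sleeping animal 5 (adjusted p = 0.0696). Of 15 cytosolic ribosomal proteins 1 rose (Rpl6, 0.19 log2), of 26 proteasome subunits 1 fell (Psmb4, −0.18 log2) and of 16 antioxidant genes 1 fell (Gsr, −0.20 log2). The calls of Psmb4 and Gsr were lost in 3 and 10 of 18 omissions (adjusted p up to 0.0889 and 0.118, both without sleeping animal 5), and without the 3 animals of low Y-linked signal 0 of the 16 antioxidant genes were called. Of 13 ubiquitin and autophagy genes 1 rose and 2 fell, among them Tfeb, the regulator of lysosomal genes (−0.56 ± 0.10 log2, adjusted p = 0.0012), and without those 3 animals 1 of the 13 fell. In iron handling, Fth1, the ferritin heavy chain, rose by 0.29 ± 0.05 log2 (adjusted p = 0.00041) and Steap3 fell by 0.75 log2 among 9 genes. Sleeping animal 3 had 7.05 log2 of Steap3, without it the change was −0.45 log2, and other probe sets gave 0.19 and 0.35 log2. ATF4 targets and amino acid supply gave 3 rises and 1 fall among 19, led by Mthfd2 of mitochondrial folate metabolism (0.67 ± 0.12 log2, adjusted p = 0.0011), whose second probe set changed by −0.02 log2. The fall of Slc7a5, an amino acid transporter gene (−0.74 log2), was lost in 13 of 18 omissions and the rise of Psat1, of serine synthesis (0.12 log2), in 2 of 18 (adjusted p up to 0.123, without sleeping animal 2, and 0.0636, without sleeping animal 1). Of 17 tubulins and microtubule regulators Map7 rose by 0.44 ± 0.07 log2 (adjusted p = 0.00059), while Tuba1a and Stmn4 fell by 0.13 and 0.14 log2. Kcna4 fell (−0.73 log2) among 14 potassium channels, of which 2 fell without the 3 animals of low Y-linked signal, and 0 of 12 genes of antigen presentation and interferon were called (limma, with 2 rises and 1 fall at an unadjusted p below 0.05).

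**Figure D4:**
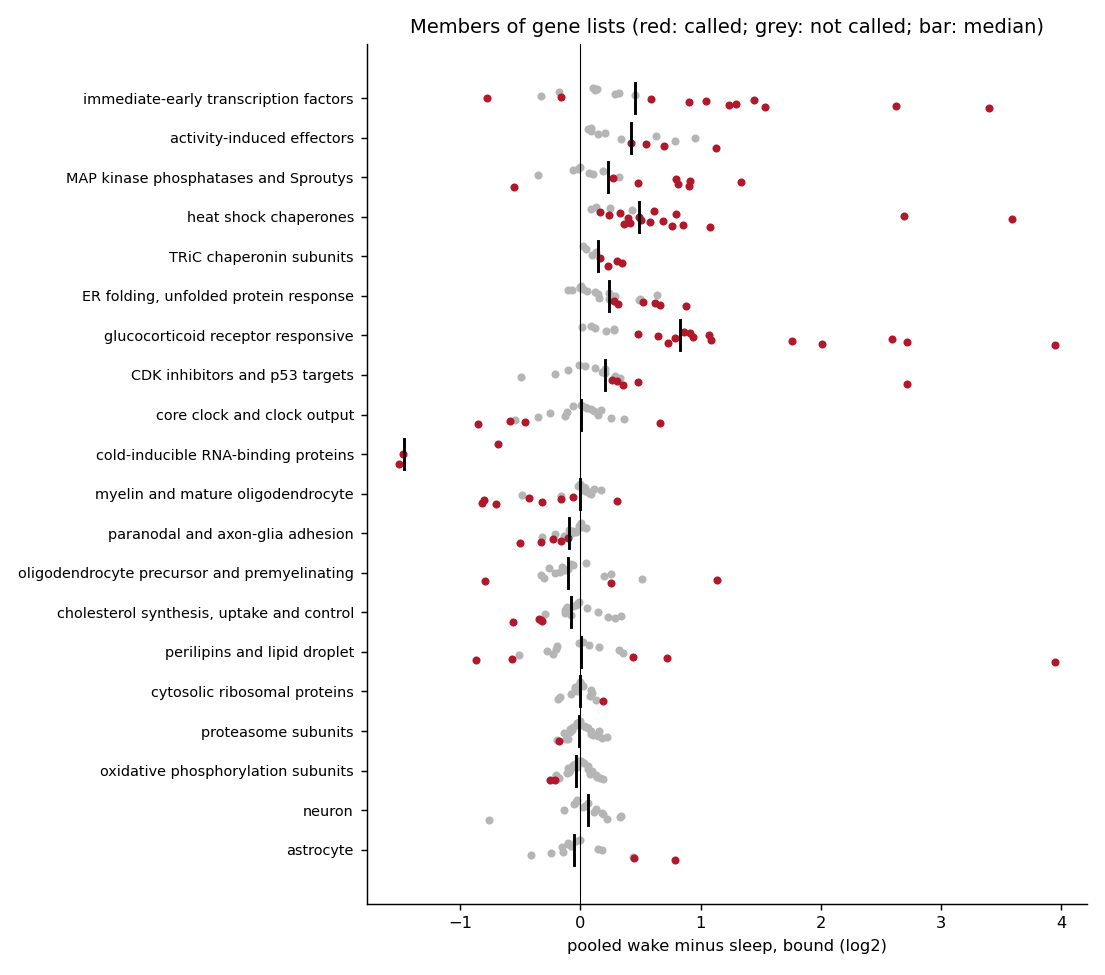
Pooled wake change (log2, horizontal axis) of each tested member of 20 gene lists, with the median of each list as a bar. Glucocorticoid-responsive genes, heat shock chaperones and immediate-early factors have medians of 0.83, 0.48 and 0.45 log2. The median of the cold-inducible list (Cirbp, Srsf5 and Rbmx) is −1.47 log2, and that of the myelin list lies around −0.01 log2.

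Markers of other cells were followed in the same arrays, where 7.29% of all genes rose and 7.07% fell. None of 15 neuron and 10 microglia markers was called (limma, with 2 and 0 rises and 1 and 1 falls at an unadjusted p below 0.05), and without sleep-deprived animal 10 there were 1 rise and 1 fall among the neuron markers. Of 14 astrocyte markers Gjb6 and Fgfr3 rose (0.79 and 0.44 log2), the call of Fgfr3 being lost in 8 of 18 omissions (adjusted p up to 0.0956, without sleeping animal 5). The rises numbered 1 without the 3 animals of low Y-linked signal. The 14 astrocyte markers summed to 5.63 to 7.74 (units of 1000) in waking, 6.06 to 7.71 in sleep-deprived and 5.76 to 7.7 in sleeping animals, and the 10 microglia markers to 0.471 to 0.832 in waking, 0.427 to 0.579 in sleep-deprived and 0.393 to 0.613 in sleeping animals. The 8 endothelial and mural markers summed to 0.479 to 0.747 in waking, 0.577 to 0.792 in sleep-deprived and 0.507 to 0.683 in sleeping animals, with 1 rise, Flt1 (0.43 log2, lost in 3 of 18 omissions, adjusted p up to 0.0629, without sleeping animal 4). The summed choroid plexus and ependyma markers ranged over 1.83 to 3.22 in waking, 2.06 to 2.83 in sleep-deprived and 2.73 to 3.52 in sleeping animals, and Foxj1, a regulator of cilia on both this list and the ciliary one, fell by 0.47 log2, a call lost in 3 of 18 omissions (adjusted p up to 0.0712, without sleeping animal 5). Peptides and receptors of neurons deep in the forebrain included Crh, the corticotropin-releasing hormone gene, which rose by 1.44 ± 0.40 log2 (adjusted p = 0.019, 1 of 9 hypothalamic genes, and 0 of 9 without the 3 animals of low Y-linked signal), and the dopamine receptor gene Drd2, which rose by 0.81 ± 0.19 log2 (adjusted p = 0.0082, 1 of 6 striatal genes). Both were over 2 log2 dimmer in the bound than in the unbound fraction. What these cells contribute to the results above was not tested.

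A list of 13 genes that brain does not express was followed as a gauge. Of these, 4 rose and 1 fell, against 14.4% of all genes, and 4 rose and none fell without the 3 animals of low Y-linked signal. Krt5, a keratin of skin, had 5.59 to 5.89 log2 (median 5.79) in waking, 5.61 to 6.03 (5.73) in sleep-deprived and 4.94 to 5.21 (5.01) in sleeping animals. It rose by 0.73 ± 0.10 log2 (adjusted p = 5.8e-05) without overlap, and its unbound change was −0.07 log2. Krt14 (0.70), and the sperm protamine genes Prm2 (0.62) and Prm1 (0.53 log2) rose as well, so calls of this size occurred in genes for which brain RNA is not known. Prm1 was not dim, with means of 8.36 log2 in pooled wake and 7.82 in sleep. Its dim further probe sets gave 0.10 and −0.03 log2.

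The unbound arrays of the same animals held fewer calls, 1032 (7.41%), of which 406 rose and 626 fell. With quantile normalization within the fraction these were 511 and 488, so the split depends on scaling, and the median unbound change was −0.03 log2. Without sleeping animal 5 the count was 676. The difference between the bound and unbound pooled change, computed per animal, was called in 927 genes (6.66%), 578 of them with a higher bound change and 349 with a lower one. Heat shock chaperones made up 9 of these 927: their unbound median was 0.16 log2, and 6 of 21 rose there. Chordc1 changed by 0.63 log2 more in the bound fraction (adjusted p = 3.0e-04) and Dnajb1 by 0.67 log2 more (adjusted p = 0.00063). Immediate-early factors rose in 12 of 19 cases unbound, and the difference was called in 2 of the 19. Fos changed by 2.63 log2 in both fractions.

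Single genes parted more widely. Plin4 rose in both fractions and by 1.88 log2 more in the bound one (adjusted p = 0.00015). Arc, a neuronal gene of synaptic plasticity, rose by 0.55 log2 bound and 2.22 log2 unbound, a difference of −1.67 log2 (adjusted p = 3.6e-05). Scrg1 rose by 2.86 log2 bound and 0.55 unbound. Fam83d (0.05), Snord104 (0.01) and Luc7l (0.17 log2) had unbound changes that did not pass the test, and in each the difference did. Btc fell by 1.90 log2 bound while its unbound signal rose by 1.12 log2 (adjusted p = 0.0057), a difference of −3.02 log2 (adjusted p = 4.7e-05). Opalin fell by 0.82 log2 in both fractions. Cirbp fell in both, by 1.51 and 0.95 log2, and the difference did not pass the test (adjusted p = 0.059).

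**Figure D5:**
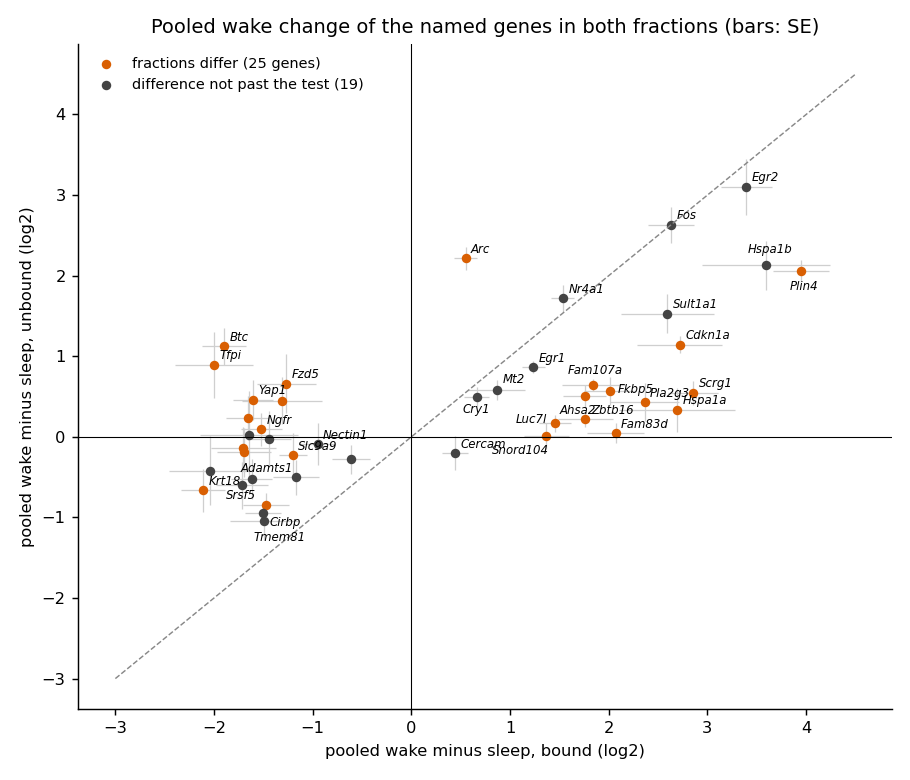
Pooled wake change in the unbound arrays (log2, vertical axis) against that in the bound arrays (log2, horizontal axis) for 44 named genes, with bars for the SE and a dashed line where both are equal. The 25 genes whose fractions differ past the test, such as Scrg1, Btc and Arc, are orange, and Fos, Egr2 and Cirbp are among the 19 that do not, in dark grey. Some of the 44 were named because they passed this test.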

How the data were processed

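Forebrain RNA of 18 mice was measured in a bound and an unbound fraction on 36 expression arrays, and the labels call the replicates biological, from different animals. The values the authors deposited are log2 signals, and the submitters' processing notes name RMA. The version and the scope of that normalization (all arrays or each group) are not given in the sources used here. No scanner files were used here. Of 45101 probe sets, 34945 name 1 gene in the platform annotation, 932 name several, 9160 name none and 64 are controls, and genes were named only from the first kind. For each of 18193 genes the probe set with the highest mean over the 36 arrays was kept, and 13924 genes whose mean was at the 40th percentile or above in either fraction (4.471 log2 bound, 5.183 unbound) were tested.

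Models were fitted with limma 3.58.1 (R 4.3.3, eBayes with an intensity trend) on the 18 bound arrays, with contrasts for the mean of waking and sleep deprivation minus sleep, and for sleep deprivation minus waking. The stricter call used the larger p of the 2 wake groups against sleep where both had 1 sign. The fraction difference was fitted to bound minus unbound values of each animal. All adjusted p-values are limma's with Benjamini-Hochberg adjustment over all tested genes, two-sided, called below 0.05, and SE are limma's. The fits were tested on simulated data. The precision is limited by 6 arrays per group. Wake against sleep uses the same 6 sleeping animals for both wake groups.

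The groups, gene lists and tests were chosen with earlier results of these data known. Genes were named by a rule: the 10 largest shared rises and falls by the smaller wake change, the same among genes of at least 8 log2, from each list, the 4 or fewer of lowest p, Cnp and Rpl10a, and the 4 largest each way of the fraction difference and of sleep deprivation minus waking. This gave 202 genes, and other list members are named after their values were seen, because they passed the test. Single animals were left out in turn for the 202 genes and the counts. Alternatives were quantile normalization, other filters, the mean over probe sets, no intensity trend, robust moderation, all wake arrays as 1 group and a replicate block. The omission of 3 animals of low Y-linked signal, and that of sleep-deprived animal 10 for the lists, were chosen after seeing the data. Promoters were taken from a RefSeq table of build GRCm38.p6 and searched with Python 3.11.15.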

Additional observations from a re-analysis of the deposited data

Results flagged for a closer look

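In 7 of 138 groups of 6 bound arrays, over 46 named genes, 1 animal lay far from the others by Dixon's criterion, close to the 1 in 20 that chance gives. Krt18 read 4.30 log2 in sleep-deprived animal 8 and Tfpi 4.70 log2 in waking animal 3. Adamts1 was lowest in waking animal 3, at 8.60 log2, which is one of the animals of low Y-linked signal. Cry1 read 9.28 log2 in sleep-deprived animal 9. Among the sleeping animals, Luc7l read 8.12 log2 in animal 1, Saxo2 6.23 log2 in animal 3 and Mt2 10.2 log2 in animal 5.

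The pooled wake change differed between the bound and the unbound fraction, by a test of that difference, in 25 of these 46 genes. Some of the 46 were named because they passed this test, and others for a large bound change, which is 1 term of the difference. That count was therefore partly set in advance. Of all tested genes 6.66% were called in it. The bound change was the higher one in Plin4 (1.88), Scrg1 (2.31), Hspa1a (2.36), Fam83d (2.02), Pla2g3 (1.93), Ahsa2 (1.25), Snord104 (1.36), Fam107a (1.20), Luc7l (1.29), Cdkn1a (1.58), Fkbp5 (1.45) and Zbtb16 (1.55 log2). It was the lower one in Krt18 (−1.45), Tfpi (−2.90), Btc (−3.02), Slc13a5 (−1.89), Popdc3 (−1.51), Yap1 (−2.06), Ngfr (−1.62), Saxo2 (−1.56), Srsf5 (−0.63), Slc9a9 (−0.97), Fzd5 (−1.93), St3gal1 (−1.76) and Arc (−1.67 log2). Of these, St3gal1 lost its bound call in 8 of 18 omissions of a single animal (adjusted p up to 0.0733, without sleeping animal 5). In Tfpi, Btc, Slc13a5, Yap1, Ngfr, Fzd5 and St3gal1 the unbound change was above 0, and of these 7 it passed the test in Btc only.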

How the results depend on the processing

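The pooled bound count of 2000 ranged over 1572 to 2054 when 1 animal was left out, and was 2053 after quantile normalization within the fraction (1938 in common). It was 3568 with no filter on low signal. For sleep deprivation minus waking, the 698 calls became 2124 with no filter, 277 with a filter at the 60th percentile and 234 without the 3 animals of low Y-linked signal, and ranged over 532 to 704 with 1 animal left out. The 384 shared wake calls became 823 with no filter and 177 without those 3 animals, with 247 to 381 when 1 animal was left out (the lowest without sleeping animal 4, and 253 without waking animal 3). Unbound, the 1032 calls became 2400 with no filter and 592 at the 60th percentile, with 676 to 1078 when 1 animal was left out (the lowest without sleeping animal 5). The 927 fraction differences became 2247 with no filter and 405 at the 60th percentile, ranged over 627 to 911 with 1 animal left out, and split into 485 higher and 401 lower after quantile normalization within the fraction. The filters change how many genes are tested, and the causes of the other shifts were not tested.

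Waking and sleeping animals of the same number did not deviate together (correlations of −0.000946 to 0.0868), so the numbers do not pair them, and sleep-deprived animals 7 to 11 have no partner. With a replicate block the counts were 562 pooled (450 in common), 0 for sleep deprivation minus waking (limma, with 1363 at an unadjusted p below 0.05), 23 shared and 41 unbound, and the fraction difference with no replicate block gave 949. Of the 202 named genes, 196 kept direction and side of the threshold under quantile normalization, 171 under the mean over probe sets and 179 without the 3 animals. Under the mean over probe sets the change of Sc5d was 0.13, of Sptlc1 0.24, of Sqstm1 0.35 and of Deptor 0.11 log2, each opposite to its fall in the probe set kept. Dim probe sets carry more noise, and genes below 8 log2 were called in 12.5% of cases, against 16.3% of brighter ones.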
